A study of Homo sapiens with 6 samples.

Results

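The genes described are the ligands and receptors of 3 signalling systems that guide cell movement: the PDGF system (ligands PDGFA, PDGFB and PDGFC, receptors PDGFRA and PDGFRB), the KIT system (ligand KITLG, receptor KIT) and the CXCL12 system (ligand CXCL12, receptors CXCR4 and ACKR3). They were taken by symbol, 10 genes of the 37803 symbols listed once in both expression tables, and comprise 5 ligands and 5 receptors. All 10 were among the 13909 genes tested.

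RNA-seq was performed on H1 cells, an established human embryonic stem cell line, at day 2 of differentiation toward blood cells. Every group received the same medium, Custom mTeSR1 with 40 ng/ml of activin A plus 50 ng/ml of BMP4 per the labels. The study's methods give these 2 doses the other way round. Wild-type cells (WT, n = 2) were compared with cells labelled as SNAI1 deletions, whose titles carry 2 leading numbers and are called SNAI1_KO_1 (n = 2) and SNAI1_KO_2 (n = 2). SNAI1 encodes a zinc-finger transcription factor best known as a repressor of epithelial genes. The study made its deletions in H1 cells with CRISPR/Cas9, as a pair of lines with frameshift mutations for each gene, but neither the labels nor the methods say which line each number is. Nothing in the labels says that the libraries of a group came from separate cultures, so p-values measure the spread between these libraries, which may be technical.

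PDGF receptors and KIT are related receptor tyrosine kinases that are activated when a dimeric ligand draws receptor chains together, and they signal through phosphoinositide 3-kinase, Ras and Src-family kinases. PDGFRA marks early mesoderm, and KIT is carried by pluripotent cells, germ cells and blood progenitors. CXCR4 is a G protein-coupled receptor through which CXCL12 directs the migration of gastrulating cells and, later, of blood stem cells, while ACKR3 binds the same chemokine but takes it up and signals mainly through β-arrestin.

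FPKM (fragments assigned to a gene, divided by transcript length and by library size) summed to between 603399 and 633851 per library, with 13553 to 14063 symbols at 1 FPKM or more. Mitochondrial genes took 8.77% to 9.46% of the summed FPKM in the first table and 5.20% to 5.52% in the second, which did not follow the groups. SNAI1 mRNA itself was at 36.4 to 37.1 FPKM in WT and at 47.8 to 68.6 FPKM in the 4 libraries labelled as deletions. A frameshift can leave the transcript in place, so SNAI1 mRNA does not check the labels, and each direction given here follows the labels as they stand.

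The ligands KITLG and PDGFB and the receptor KIT were higher in the libraries labelled as SNAI1 deletions than in WT, and 3 receptors and the ligand CXCL12 were lower. PDGFA was also called higher, but it reached the filter on low values only through its knockout libraries, so its test is not read as support. The genes that fell were ACKR3, CXCR4, CXCL12 and PDGFRA. PDGFC and PDGFRB did not pass the test. The test was limma on log2(FPKM + 1), with the table as a block and p-values adjusted over all genes tested, and a gene was called at an adjusted p under 0.05. The block by table is called the replicate block below, although the columns carry no replicate number. Over both knockout groups against WT, 8 of the 10 genes were called, where 31.3% of all genes tested were called (15.8% higher and 15.4% lower), and 7 of the 9 other than PDGFA. Without PDGFA, the median absolute log2 difference was 0.75 for the 9 genes and 0.21 for all genes tested. The median signed difference was 0.98 for the 4 remaining ligands, -0.47 for the 5 receptors and -0.05 for all genes tested.

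The same 8 genes were called, in the same directions, in each knockout group taken alone, and all of these comparisons share the 2 WT libraries. PDGFA is 1 of the 8, and its calls are not read as support here either. For SNAI1_KO_1 against WT, 23.9% of all genes tested were called (13.0% higher and 10.9% lower), and for SNAI1_KO_2 against WT 25.5% were called (13.5% higher and 12.0% lower). In FPKM, 4 of the genes (3 without PDGFA) lay above both WT libraries in all 4 knockout libraries (16.9% of all genes tested did) and 4 lay below (17.1% did). Between the knockout groups themselves, 0 of the 10 genes and 0% of all genes tested were called by limma, while 521 genes had an unadjusted p under 0.05. The number called among the 10 depended on the setting, as did the number over all genes tested. Over both groups it was 4 of the 10 without the replicate block and 2 without the filter on low values. Of all genes, 1065 and 2139 were called in these settings, against 4348 with both block and filter. Both numbers also fell when either WT library was left out. Leaving out 1 library gave 3 to 6 called genes for SNAI1_KO_1 against WT and 2 to 7 for SNAI1_KO_2, the lowest without the second-table library of SNAI1_KO_2. Over both groups, KITLG and PDGFB were called under all 15 alternative settings.

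**Figure D1:**
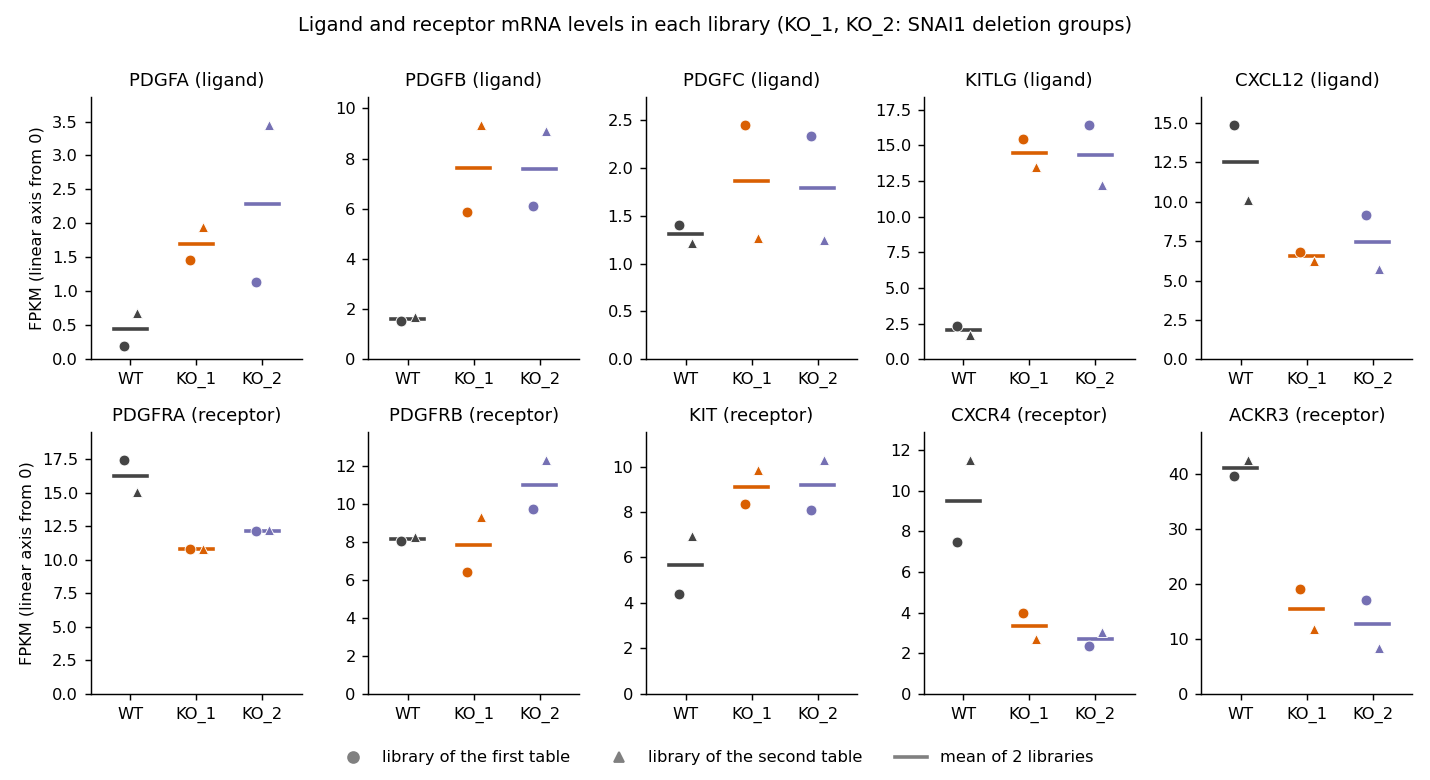
FPKM of the 10 genes in the 6 libraries, each gene in its own panel with its own linear axis. Ligands are in the upper row and receptors in the lower, and the tables are shown by marker shape. KITLG, PDGFB, PDGFA and KIT lie higher in all 4 knockout libraries than in both WT libraries, and PDGFRA, CXCR4, CXCL12 and ACKR3 lie lower.

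Among the PDGF ligands, PDGFB changed most clearly. PDGFB forms a dimer that binds both PDGF receptors and is best known for drawing mural cells to growing vessels. Its level was 1.55 and 1.68 FPKM in WT (first and second table), 5.89 and 9.34 in SNAI1_KO_1, and 6.10 and 9.10 in SNAI1_KO_2. The knockout libraries did not overlap WT, and within a table they were 3.81 to 5.56 times the WT value. On the log2(FPKM + 1) scale the difference was 1.69 ± 0.14 (SE; 95% interval 1.34 to 2.05; limma adjusted p = 0.00117).

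PDGFA, the ligand of PDGFRA that is made by many embryonic epithelia, was the scarcest of the 10 genes in WT. It was listed at 0.193 and 0.688 FPKM in WT, 1.46 and 1.94 in SNAI1_KO_1, and 1.13 and 3.45 in SNAI1_KO_2. Every knockout library was above 1 FPKM and both WT libraries were below it, so the gene passed the filter of a mean FPKM of 1 only through its knockout libraries and was tested only because it was high there. Its log2(FPKM + 1) difference of 1.02 ± 0.21 (SE; limma adjusted p = 0.0181) is therefore given as a description. This call was lost without the replicate block (adjusted p = 0.170), without the filter (0.10), and when either WT library (0.0991 and 0.134) or the SNAI1_KO_1 library of the first table (0.0543) was left out.

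SNAI1 is known to bind the E-box letters CAGGTG, and these letters, or CACCTG on the other strand, were searched for in the 250 bases before each RefSeq start. They were present in 17.5% of 35116 promoter windows. A window was listed for 7 of the 10 genes, 13 windows in all, and PDGFA was the only 1 of the 7 with a match, in 3 of its 4 windows. PDGFB, PDGFC and ACKR3 had no entry. The 3 stretches of 30 bases around these matches are shown because no other match was found in the 13 windows. KITLG and KIT, which like PDGFA lay higher in all 4 knockout libraries, had 1 window each and no match. They are on the minus strand of build GRCh38.p14, with the E-box in capitals.
PDGFA, chr7:518404-518433: cgggcctgcttaCAGGTGgctgagcgaggc
PDGFA, chr7:520382-520411: cgtggcagccgcCAGGTGagtgccccaaac
PDGFA, chr7:520842-520871: ggcactgacgagCACCTGgacctgtagtca
The match started 92, 173 and 159 bases before the transcript start in turn. In the GENCODE release 29 annotation, 15 bases of the first stretch lie in a PDGFA exon, and 21 bases of the second and 30 of the third lie in an exon of HRAT92, a long noncoding RNA gene on the other strand. These are matches of letters and not binding sites measured here.

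PDGFC, which binds PDGFRA after a protease removes its CUB domain, stood at 1.41 and 1.22 FPKM in WT, 2.45 and 1.27 in SNAI1_KO_1, and 2.33 and 1.24 in SNAI1_KO_2. The knockout libraries of the first table were above both WT libraries, while those of the second lay between them. The knockout libraries of the first table thus stood apart from those of the second, and the log2(FPKM + 1) difference of 0.26 did not pass the test (95% interval -0.16 to 0.68, limma adjusted p = 0.282). It was 0.025 without the first-table WT library and 0.49 without the second-table one. The 3 PDGF ligands together came to 3.15 and 3.59 FPKM in WT and to between 9.56 and 13.8 in the knockout libraries.

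Of the PDGF receptors, PDGFRA was called and PDGFRB was not. PDGFRA, the receptor for PDGFA, PDGFB and PDGFC, was 17.5 and 15.1 FPKM in WT, 10.8 and 10.8 in SNAI1_KO_1, and 12.1 and 12.2 in SNAI1_KO_2. All 4 knockout libraries lay below both WT libraries, by 1.23 to 1.62 times within a table, and the libraries of each knockout group lay very close to each other (10.8 ± 0.0071 and 12.2 ± 0.058 FPKM, SD, n = 2 each). A log2(FPKM + 1) difference of -0.47 ± 0.084 (SE) resulted (limma adjusted p = 0.0126). On this scale it was the smallest change among the 8 called genes. The call was lost without the replicate block (adjusted p = 0.113), without the filter (0.0563), and without the first-table library of WT (0.104), SNAI1_KO_1 (0.0576) or SNAI1_KO_2 (0.0545). The annotation holds a readthrough gene, AC058822.1, that shares PDGFRA exons, and it was listed at no more than 7e-06 FPKM in any library.

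PDGFRB, the PDGFB receptor of pericytes and smooth muscle precursors, was 8.03 and 8.25 FPKM in WT, 6.42 and 9.30 in SNAI1_KO_1, and 9.71 and 12.3 in SNAI1_KO_2. The SNAI1_KO_1 libraries fell on either side of WT and those of SNAI1_KO_2 lay above it. Over both groups the log2(FPKM + 1) difference was 0.16 (95% interval -0.13 to 0.45, limma adjusted p = 0.332), and it was -0.018 without the WT library of the second table. PDGFRB had the largest difference between SNAI1_KO_2 and SNAI1_KO_1 among the 10 genes, 0.45 ± 0.13 (SE), which did not pass the test (limma adjusted p = 0.9996, unadjusted p = 0.0174). The ratio of PDGFRA to PDGFRB FPKM was 2.17 and 1.83 in WT and between 0.990 and 1.68 in the knockout libraries.

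The KIT system held the largest change of the 10 genes on the log2(FPKM + 1) scale, in its ligand. KITLG, also called stem cell factor, supports the survival and migration of germ cells, melanoblasts and blood progenitors. Its level was 2.35 and 1.72 FPKM in WT, 15.4 and 13.5 in SNAI1_KO_1, and 16.4 and 12.2 in SNAI1_KO_2. The lowest knockout library was several times the highest WT library, and within a table the knockout value was 6.56 to 7.83 times that of WT. KITLG rose by 2.34 ± 0.092 (SE; 95% interval 2.11 to 2.57) on the log2(FPKM + 1) scale (limma adjusted p = 0.000194), and leaving out any 1 library kept it between 2.30 and 2.38. An antisense gene over KITLG, AC024941.2, was listed at no more than 0.158 FPKM, and whether counting used strand is not given in the sources used here.

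KIT, the receptor of this ligand, was 4.41 and 6.94 FPKM in WT, 8.34 and 9.85 in SNAI1_KO_1, and 8.10 and 10.3 in SNAI1_KO_2. The groups did not overlap, but the gap was narrow, since the higher WT library lay close to the lower knockout libraries. The rise was 1.42 to 1.89 times within a table, and the log2(FPKM + 1) difference was 0.62 ± 0.10 (SE; limma adjusted p = 0.0102). The call was lost without the replicate block (adjusted p = 0.175), without the filter (0.0596) and without the first-table WT library (0.0824). Ligand and receptor thus rose together in the KIT system, the only 1 of the 3 systems in which both a ligand and a receptor were called higher.

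In the CXCL12 system the ligand and both receptors were lower. ACKR3, which clears CXCL12 from around migrating cells, was the most abundant of the 10 transcripts in WT, at 39.8 and 42.7 FPKM. It was 19.1 and 11.8 FPKM in SNAI1_KO_1 and 17.1 and 8.34 in SNAI1_KO_2. No knockout library came near WT, and the drop was 2.09 to 5.12 times within a table, with both second-table knockout libraries lower than both first-table ones. ACKR3 had a log2(FPKM + 1) difference of -1.55 ± 0.21 (SE; limma adjusted p = 0.00563), and without the filter the adjusted p was 0.0653. It was -2.00 without the first-table WT library and -1.10 without the second-table one.

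CXCR4, the signalling receptor for CXCL12, was 7.49 and 11.5 FPKM in WT, 4.0 and 2.69 in SNAI1_KO_1, and 2.38 and 3.04 in SNAI1_KO_2. All knockout libraries were below WT, by 1.87 to 4.29 times within a table. This gave -1.37 ± 0.22 (SE) as its log2(FPKM + 1) difference (limma adjusted p = 0.00840). The adjusted p was 0.0760 without the filter and 0.0850 without the WT library of the second table. As these are bulk libraries, fewer cells with CXCR4 and less CXCR4 RNA per cell cannot be told apart, and the same holds for the other genes.

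The bases just upstream of the most upstream CXCR4 start (RefSeq, build GRCh38.p14, minus strand) are shown for 1 of the 3 receptors called lower, with exon bases left off. They hold no match to the E-box letters searched, and neither do the other CXCR4 windows. The 2 windows of PDGFRA, also called lower, hold no match either, and ACKR3 had no entry.
CXCR4, chr2:136118166-136118399: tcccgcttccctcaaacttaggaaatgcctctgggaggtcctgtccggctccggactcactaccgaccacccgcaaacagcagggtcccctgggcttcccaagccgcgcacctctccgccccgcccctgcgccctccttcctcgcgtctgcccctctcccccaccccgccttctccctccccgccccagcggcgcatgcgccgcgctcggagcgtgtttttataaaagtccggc

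CXCL12, the chemokine bound by both receptors, was 14.9 and 10.1 FPKM in WT, 6.84 and 6.23 in SNAI1_KO_1, and 9.14 and 5.71 in SNAI1_KO_2. The knockout libraries lay below both WT libraries, and the highest of them came close to the lower WT library, which was in the other table. Within a table the drop was 1.63 to 2.17 times. Both groups together differed from WT by -0.75 ± 0.12 (SE) in log2(FPKM + 1) (limma adjusted p = 0.00983). The call was lost without the replicate block (adjusted p = 0.146), without the filter (0.0691) and without the WT library of either table (0.101 for the first, 0.0708 for the second).

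**Figure D2:**
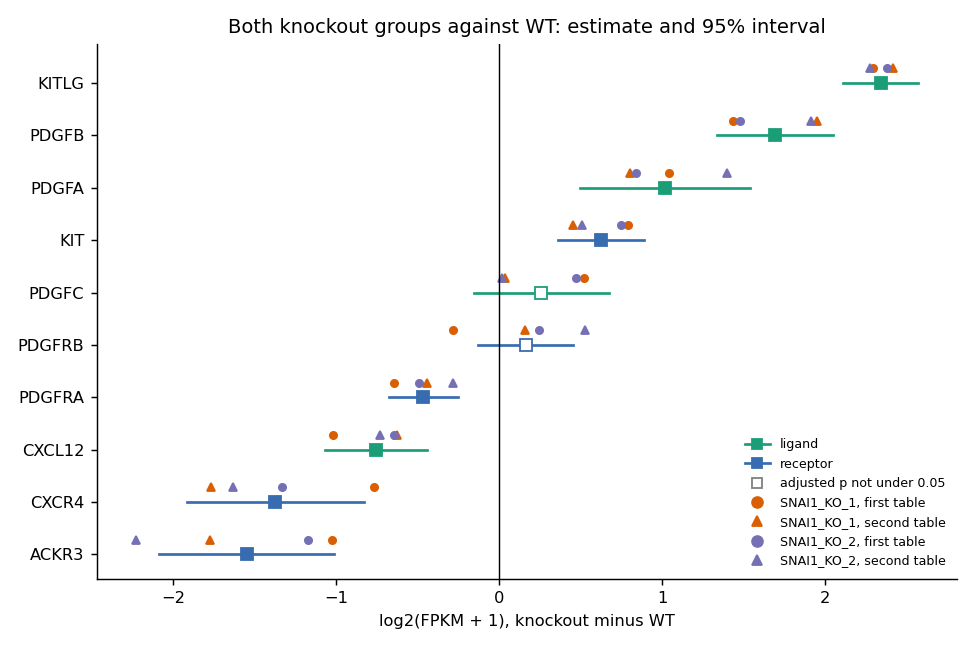
Differences on the log2(FPKM + 1) scale between both knockout groups and WT for the 10 genes, with 95% intervals from limma and the 4 within-table differences as points. The interval crosses 0 for PDGFC and PDGFRB, lies above 0 for KITLG, PDGFB, PDGFA and KIT, and lies below 0 for PDGFRA, CXCL12, CXCR4 and ACKR3.

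FPKM is scaled by transcript length, so the levels of the 10 genes can be set in order within a library. In both WT libraries ACKR3 came first and PDGFRA second, then CXCL12, CXCR4 and PDGFRB in an order that differed between the libraries, then KIT, KITLG, PDGFB, PDGFC and PDGFA. In the knockout libraries KITLG moved up to the first 3 places and CXCR4 down to the last 3. PDGFRB came first in the SNAI1_KO_2 library of the second table, ACKR3 in both knockout libraries of the first table, and KITLG in the SNAI1_KO_1 library of the second. The WT means of CXCL12 (12.5 ± 3.35 FPKM, SD, n = 2) and CXCR4 (9.51 ± 2.85) did not differ beyond their spread, nor did those of CXCR4 and PDGFRB (8.14 ± 0.15), while CXCL12 lay above PDGFRB in both WT libraries. In SNAI1_KO_1 KITLG (14.5 ± 1.37) and ACKR3 (15.4 ± 5.14) did not differ beyond their spread.

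The balance of ligand to receptor transcripts was then compared. The 5 ligands summed to 20.4 and 15.4 FPKM in WT and to between 31.7 and 35.1 in the knockout libraries, whereas the 5 receptors summed to 77.2 and 84.5 in WT and to between 44.4 and 49.5 in the knockout libraries. Ligands thus made up 20.9% and 15.5% of the summed FPKM of the 10 genes in WT and 39.7% to 42.1% in the knockout libraries. KITLG and ACKR3 carried most of this. Without KITLG, the other 4 ligands summed to 18.0 FPKM in WT and 16.6 and 18.7 in the knockout libraries of the first table. In the second table they summed to 13.7 in WT and to 18.8 and 19.5. Without ACKR3, the other 4 receptors still summed to less than WT within each table. They came to 29.6 and 32.3 against 37.4 in the first, and 32.6 and 37.9 against 41.8 in the second. Across tables, the groups overlapped in both sums. A ligand and its receptor may be made by different cells, which these libraries do not resolve.

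For 7 ligand and receptor pairs, the log2 ratio of (FPKM + 1) was computed in each library. For KITLG over KIT it was -0.69 and -1.54 in WT, 0.82 and 0.42 in SNAI1_KO_1, and 0.94 and 0.22 in SNAI1_KO_2, so that the receptor transcript exceeded that of the ligand in both WT libraries and the ligand exceeded the receptor in all 4 knockout libraries. The largest shift was that of PDGFB over PDGFRA, from a mean of -2.72 in WT to -0.56 in the knockout libraries, a difference of 2.16 (1.97 to 2.39 within tables). PDGFB over PDGFRB shifted by 1.53, PDGFA over PDGFRA by 1.49, and PDGFC over PDGFRA by 0.73.

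Of the 2 CXCL12 pairs, CXCL12 over ACKR3 had a difference of 0.79, with within-table values from 0.0055 to 1.5. CXCL12 over CXCR4 had a difference of 0.62 and was above WT in 3 of the 4 knockout libraries, the exception being SNAI1_KO_1 in the first table (-0.25). An exact two-sided permutation test over the 9 arrangements of the WT label within tables cannot go below p = 0.111. It gave 0.111 for 6 of the pairs (adjusted p = 0.130 over the 7) and 0.333 for CXCL12 over CXCR4, so none passed. The direction of all 7 shifts held in each of the 56 alternative settings, but their size depended on the setting. With 0.1 or 10 added to FPKM in place of 1, the difference was 2.63 or 0.88 for PDGFB over PDGFRA. It was 2.50 or 0.49 for PDGFA over PDGFRA, and 1.96 or 0.50 for PDGFB over PDGFRB. For KITLG over KIT it was 2.06 or 0.72, while CXCL12 over ACKR3 stayed at 0.78 or 0.71. The WT libraries moved the size of 3. Without the first-table or the second-table WT library, the difference was 1.32 or 0.26 for CXCL12 over ACKR3. It was then 1.02 or 0.22 for CXCL12 over CXCR4, and 0.39 or 1.06 for PDGFC over PDGFRA.

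**Figure D3:**
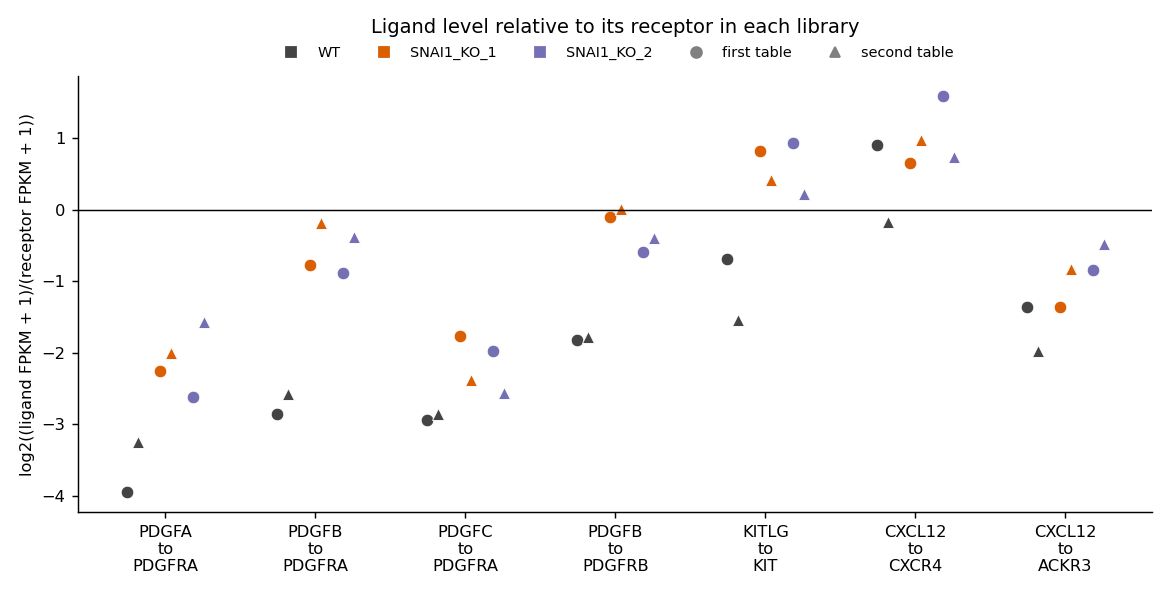
The log2 ratio of (ligand FPKM + 1) to (receptor FPKM + 1) for the 7 pairs in each of the 6 libraries, with 0 marking equal transcript levels. The knockout libraries lie above the WT library of the same table for 6 pairs, and for CXCL12 over CXCR4 in 3 of 4 cases.

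The other genes of these systems were taken from 8 lists of 133 genes, 87 of which passed the filter, 16 called higher and 22 lower over both knockout groups against WT (43.7% called, against 31.3% of all genes tested). Of the 16, PDGFD, PDGFRL, VAV3 and INPP5D had a mean under 1 FPKM in WT and passed the filter only through their knockout libraries, so their tests are not read as support. Among 5 other ligands of the PDGF and VEGF family that were tested, VEGFA, the main vessel growth factor, rose from 10.9 and 17.5 FPKM in WT to between 17.9 and 40.7, with a log2 difference of 0.87. PGF, the placental growth factor, fell from 12.2 and 12.0 FPKM to between 3.38 and 4.71 (log2 difference -1.43), and VEGFB fell by 0.62 on the log2 scale. PDGFD, a PDGFRB ligand named here after its values were seen because it completes the family, was 0.664 and 0.517 FPKM in WT and 1.1 to 1.59 in the knockout libraries.

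Of the related receptors, 4 were tested, the VEGF receptors FLT1, KDR and FLT4 and the receptor-like PDGFRL. FLT1 and KDR fell, KDR from 62.9 and 53.8 FPKM in WT to between 36.2 and 40.6, and FLT4 did not pass the test. PDGFRL, which resembles a PDGF receptor but has no kinase domain, was 0.360 and 0.526 FPKM in WT and 1.90 to 2.77 in the knockout libraries. CSF1R and FLT3, the close relatives of KIT in blood cells, were under 1 FPKM in every library. Of 9 PDGF co-receptors, binding proteins and processing enzymes tested, 3 fell, namely the co-receptors NRP1 and NRP2 and the PDGF-binding matrix protein SPARC (log2 differences -0.58, -0.85 and -0.64), and 1 rose, the protease FURIN. The called genes make 44.4% of this list, against 31.3% of all genes tested.

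Inside the cell, 31 adaptors and effectors of receptor kinases were tested, of which 5 (VAV3 included) were called higher and 6 lower. This is 35.5%, near the 31.3% of all genes tested, and the median log2 difference of -0.08 was near the -0.05 of all genes. The kinase SRC fell from 73.7 and 78.5 FPKM in WT to between 26.0 and 34.8 (log2 difference -1.27), the kinase AKT1 fell by 0.83 and the phosphoinositide 3-kinase subunit PIK3R1 by 0.82 on the log2 scale. Of 15 brakes on these receptors tested, 3 fell, among them SOCS1 and CBLB, and the inositol phosphatase INPP5D was 0.338 and 0.713 FPKM in WT and 1.25 to 2.71 in the knockout libraries. The 4 called make 26.7%, under the 31.3% of all genes tested.

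Other chemokines and their receptors were scarce. Of 20 chemokines listed, 15 were under 1 FPKM in every library, and the called ones were CXCL14, which rose from 0.676 and 1.43 FPKM in WT to between 4.29 and 7.65, and CCL2, which fell by 0.59 on the log2 scale. None of 21 other chemokine receptors passed the filter and 20 were under 1 FPKM in every library, which leaves CXCR4 and ACKR3 as the chemokine receptors whose levels could be tested. CXCR2 reached 2.26 FPKM in a single library, SNAI1_KO_1 of the first table. The chemokine-like factor MIF, another ligand of CXCR4, was at 526 to 635 FPKM and did not pass the test.

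Of 19 genes that act downstream of CXCR4 and ACKR3 or share their ligands, 5 rose and 5 fell. This is 52.6%, against 31.3% of all genes tested. RGS16, a brake on G protein signalling, rose from 14.1 and 11.3 FPKM in WT to between 42.2 and 44.8. ADM, the peptide adrenomedullin that ACKR3 also takes up, rose from 11.4 and 14.3 FPKM to between 30.8 and 38.7, while ACKR3 itself fell. PTK2B, a relative of focal adhesion kinase that acts downstream of CXCR4, rose by 2.08 on the log2 scale, and ELMO1 and DOCK1, which link chemokine receptors to Rac, were among the genes that fell.

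**Figure D4:**
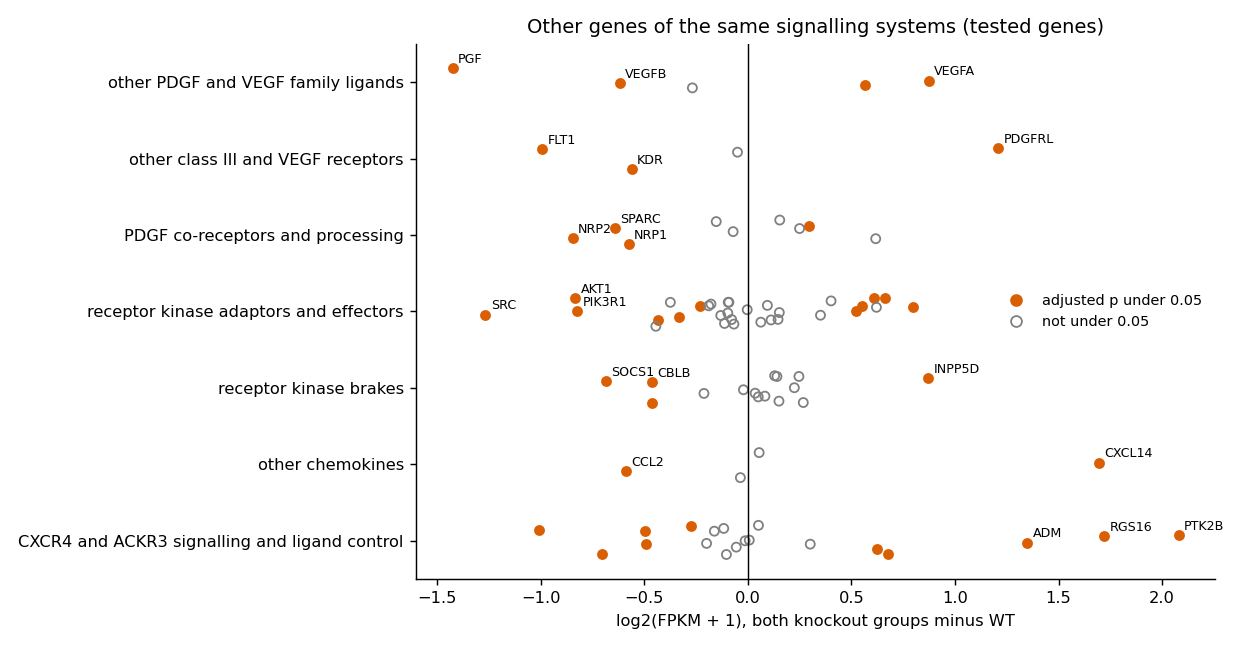
Log2(FPKM + 1) differences between both knockout groups and WT for the 87 tested genes of the same systems, in rows by list, with filled points for genes at an adjusted p under 0.05 and the largest called changes of each list named. Called genes run from PGF at -1.43 to PTK2B at 2.08, in both directions in each row with called genes. The only called rises among the related receptors (PDGFRL) and the brakes (INPP5D) passed the filter only through their knockout libraries.

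Markers of the cell types that the cultures could hold moved with these results. Of 8 primitive streak and mesoderm markers, T (brachyury) rose from 17.8 and 38.7 FPKM in WT to between 130 and 251 and 5 fell (EOMES, MESP1, MESP2, APLNR and HAND1), and the 8 together came to 1574 to 1632 FPKM in WT and 1064 to 1149 in the knockout libraries. Of 6 pluripotency markers, POU5F1, NANOG and DPPA4 rose, and the 6 summed to 631 to 740 FPKM in WT and 858 to 1167 in the knockout libraries. Of 7 definitive endoderm markers 3 rose (SOX17, FOXA1 and FOXA3) and 3 fell (FOXA2, CER1 and GATA6). Their sum, mostly CER1, was 3150 to 3519 FPKM in WT and 1457 to 2064 in the knockout libraries. SOX17 was 63.9 and 251 FPKM in WT (first and second table), 133 and 338 in SNAI1_KO_1, and 120 and 280 in SNAI1_KO_2. Of the 3 that rose, FOXA1 was 0.146 and 1.18 FPKM in WT and 0.832 to 2.04 in the knockout libraries. It passed the filter only through its knockout libraries, so its test is not read as support. With FOXA1 included, 75%, 50% and 85.7% of the mesoderm, pluripotency and endoderm markers were called, against 31.3% of all genes tested. The part of these shifts in the levels of KITLG, KIT, PDGFRA, CXCR4 and the other ligands and receptors was not tested.

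Markers of endothelium and blood, which carry these receptors later in development, were low. Of the endothelial markers, PECAM1, CDH5 and ESAM were under 1 FPKM in every library, and the 6 together came to 4.35 to 4.84 FPKM in WT and 3.77 to 4.93 in the knockout libraries. Of the blood markers, PTPRC was listed at 0 in all libraries, SPN and GATA1 were under 1 FPKM, and the 5 reported summed to 6.05 to 6.60 FPKM in WT and 6.63 to 11.4 in the knockout libraries. RUNX1 and ITGA2B made up most of this sum. RUNX1 was 3.98 and 3.22 FPKM in WT and 4.46 to 6.52 in the knockout libraries. ITGA2B was 1.47 to 5.23 FPKM over all libraries, and neither passed the test. The 5 neuroectoderm markers summed to 3.26 to 4.50 FPKM in WT and 1.20 to 2.33 in the knockout libraries, and the 6 markers of amnion and trophoblast to 36.1 to 56.7 and 35.4 to 63.5, with TFAP2A higher and GATA3 lower.

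The genes with the pattern most like each of 3 receptors were found by Pearson correlation of log2(FPKM + 1) over the 6 libraries after the table means were taken off. For PDGFRA they were CCDC144NL-AS1, GNG12 and POLD4, for KIT they were CALM2, FOXA1 and SATB1-AS1, and for CXCR4 they were MCU, KNOP1 and RCOR3, each with r above 0.99. With 6 libraries in 3 groups such values are common, since 560 genes had r above 0.95 with PDGFRA, 1242 with KIT and 736 with CXCR4. CALM2, MCU and KNOP1 did not pass the limma test themselves, and the correlation does not use the size of a change. FOXA1 passed the filter on low values only through its knockout libraries.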

How the data were processed

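RNA was sequenced from H1 cells at day 2 in 3 groups of 2 libraries, each from 2 ug of total RNA (TruSeq). The authors deposited FPKM values by gene symbol, in 2 tables that each hold 1 library per group. The submitters' processing notes name BWA, Bowtie, RSEM and hg19, without versions or roles. Unmapped per-sample columns numbered 0. Columns carry a group but no replicate number, and absolute depth is unknown, so no counting interval is given.

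Of the 37803 symbols found once in both tables, those averaging 1 FPKM or more over the 6 libraries were tested on log2(FPKM + 1), which understates changes of low genes. A model with 3 group means and a table term was fitted in R version 4.3.3 with limma (version 3.58.1; lmFit, contrasts.fit, eBayes with trend), and two-sided p-values were adjusted by Benjamini-Hochberg over all 13909 genes at a threshold of 0.05. The 2 tables differ in size, with 38100 gene rows in the first and 58324 in the second. The changes from table to table of any pair of groups had r = 0.616, 0.666 or 0.676 over genes, which are no independent replicates. A difference in how the tables were made and a pairing of the libraries cannot be told apart by these values. Ratios used an exact permutation test within tables.

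The members and gene lists were chosen with earlier results of these data known. The text names the 10 genes, SNAI1, up to 3 genes per list with the largest differences among those called with 4 within-table differences of equal sign, and 3 genes per receptor by likeness. Marker lists are given by counts and sums, with defining markers named, and 1 marker gene is not reported here; other list genes, where a count was 5 or fewer, were named after their values were seen. Promoter windows came from RefSeq (GRCh38.p14) and exons from GENCODE release 29. Scripts were tested on simulated data.

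Alternatives were no replicate block, pseudocounts of 0.1 and 10, no filter on low values (genes above 0 in at least 1 library), median-ratio scaling, quantile normalization, a mean of 5 FPKM or more, no trend, the knockout libraries as 1 group, and leaving out each library. The counts of the 10 genes called per knockout group were added as a result after seeing the data.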

Additional observations from a re-analysis of the deposited data

How the results depend on the processing

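Without the replicate block, the genes called fell from 3327 to 576 for SNAI1_KO_1 against WT, from 3549 to 698 for SNAI1_KO_2 and from 4348 to 1065 for both groups. Without the filter they were 1008, 1216 and 2139; this setting first held genes at 0 in every library and was redefined, after its values were seen, to leave those out (at first it called 1 of the 10 genes). Of the 10 genes, 4 were called without the block and 2 without the filter. The log2 difference then lost its call, at the same value, for PDGFRA (-0.47), PDGFA (1.02), KIT (0.62) and CXCL12 (-0.75) in both settings and for CXCR4 (-1.37) and ACKR3 (-1.55) without the filter. Leaving out 1 library gave 962 to 2379 genes for SNAI1_KO_1, 1135 to 2693 for SNAI1_KO_2, 1728 to 2840 for both groups, and 4 to 8 of the 10 genes. The log2 difference then ran from -0.57 to -0.36 for PDGFRA, 0.85 to 1.19 for PDGFA, 0.48 to 0.77 for KIT, -1.70 to -1.05 for CXCR4, -0.86 to -0.65 for CXCL12, -2.00 to -1.10 for ACKR3, 0.025 to 0.49 for PDGFC and -0.018 to 0.34 for PDGFRB, whose sign turned without the WT library of the second table. For single knockout groups, 8 of the 10 genes were called, and 2 to 3 without the block, 2 without the filter and 2 to 7 without 1 library. Leaving out a knockout library leaves its group with 1 library, which is assumed to vary like the others. Of 148 settings over the 10 genes, 127 kept direction and side of the threshold, 20 lost the call and 1 changed sign. PDGFA and PDGFC dropped out at a mean FPKM of at least 5. The pseudocount changed the sizes and their order. With 0.1 or 10, the log2 difference was 2.77 or 1.02 for KITLG, 2.14 or 0.59 for PDGFB and -1.61 or -1.11 for ACKR3. It was 2.01 or 0.20 for PDGFA and -0.50 or -0.29 for PDGFRA. ACKR3 thus changed more than KITLG, and PDGFA less than PDGFRA, with a pseudocount of 10. Where a call was lost, the cause was not tested. With 2 libraries per group, 2 residual degrees of freedom and no read totals, the 95% intervals of PDGFC and PDGFRB include 0, which does not show that these genes did not differ.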
